A study of Mus musculus with 24 samples.

Results

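The replication-dependent histone genes are the gene copies that supply new histone protein while DNA is copied. They were taken from the deposited tables as every gene symbol beginning Hist1h, Hist2h, Hist3h or Hist4h. Of 70 such symbols, 1 pseudogene was dropped, and 2 of the other 69 did not reach 1 TPM (a length-corrected share of a library's RNA, scaled to a fixed total) in at least 3 of 24 libraries. The 67 genes that did are described here, out of 15720 symbols that passed the same filter and 35492 listed. They comprise 5 linker H1 genes, 19 H2A, 18 H2B, 12 H3 and 13 H4 genes. No gene lay at its edge on the inside: Hist1h2ba and Hist3h2ba were the nearest, reaching 1 TPM in 10 and 16 libraries. Hist1h1t and Hist1h2aj lay outside, reaching 1 TPM in 2 and 1.

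Naive CD4 T cells (CD4+ CD62L+) sorted from spleen and lymph nodes of C57BL/6J mice lay on plates coated with anti-CD3 and anti-CD28 and were transfected for 6 h using Lipofectamine. The agent was 2'3'-cGAMP, the cyclic dinucleotide that activates the STING adaptor, or a control dinucleotide, each at 80 µg per mL in the sample labels. The cells were then polarised into TH9 cells (TGF-β, IL-4 and anti-IFN-γ) or TH1 cells (IL-12 and anti-IL-4) for 16 or 48 h. These 8 labels hold 3 libraries each, which the study describes as from 3 independent experiments. Marker genes given below differ between libraries of the same label. All cells were wild type and stimulated through CD3 and CD28. All 24 libraries were made from total RNA depleted of ribosomal RNA, a preparation that keeps transcripts with no poly(A) tail.

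Replication-dependent histone genes are transcribed mainly during S phase, under the co-activator NPAT. Their mRNAs are not polyadenylated in cycling cells. They end in a conserved stem-loop that is bound by SLBP, the protein that carries them through processing and translation, and they are destroyed when DNA synthesis stops. Naive T cells are quiescent and enter the cell cycle after stimulation through the T-cell receptor, so the level of these mRNAs in a culture is read as a mark of cells in S phase.

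Levels below are TPM divided by a scale factor per library (the median ratio to the geometric mean over 11618 genes above 0 in every library), since TPM share a fixed total and a very abundant transcript lowers every other gene of its library. The factor ran from 0.257 to 1.94. Gm10800, a predicted gene, took 0.0933% to 39.9% of TPM and Lars2, a mitochondrial leucyl-tRNA synthetase, 0.333% to 33.8%. All 8 T-cell markers had a median level of at least 1, led by Trac at 289.9, with summed levels of 703 to 1216, whereas B cell markers summed to 0.715 to 5.63, myeloid markers to 0.739 to 7.28 with Lyz2 and Cd14 at a median of 0, and NK markers to 0.452 to 17.01. The subset and treatment labels did not sort the genes that should follow them. Tbx21, which specifies TH1 cells, was above Il9, the TH9 cytokine, in 4 of 12 libraries with a TH9 label and in 8 of 12 with a TH1 label. Irf7, an interferon-stimulated transcription factor, was above its 24-library median in 8 of 12 libraries labelled cGAMP and in 4 of 12 labelled control. The time labels were no clearer: the sum of 19 mitosis genes fell into a lower and an upper range of 12 libraries each, and the upper range held 8 of 12 libraries labelled 48 h and 4 of 12 labelled 16 h. In the order of deposit, 4 libraries of the lower range were followed by 4 of the upper range, 3 times over, so that the ranges follow that order more closely than the labels. In the same order, a pair of libraries with Tbx21 above Il9 was followed by a pair with Il9 above Tbx21, throughout. Irf7 was higher in the later library of every pair than in the earlier. Whether labels were exchanged was not tested and no library was moved. Every difference below, between treatments, subsets or times, is therefore one between libraries as labelled, and it may not be one between the named conditions. Each label also held both libraries with Tbx21 above Il9 and libraries with Il9 above Tbx21. A spread or SD within a label may therefore not be one between replicates of a condition.

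The stem-loop sets these mRNAs apart from other transcripts, and it is shown here for that reason. A stem of 6 paired bases around a 4-base loop was found in the GENCODE transcript models of 43 of the 67 genes, in 6 forms. The most frequent are given 5′ to 3′ in DNA letters with the loop in capitals.
Form in 26 genes: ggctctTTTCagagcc
Form in 7 genes: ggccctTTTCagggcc
Form in 5 genes: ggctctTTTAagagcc
The form in 26 genes occurred in H1, H2A, H2B and H3 genes, the form in 7 genes in H4 genes, and the form in 5 genes in H2B and H3 genes. The other 3 forms were found in 5 genes between them, 4 of them H4 genes. A missing match says only that these letters were not in the model.

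The promoters are shown because families whose levels moved together differ in the motifs near their start sites. RefSeq promoters (GRCm38.p6, 250 bases before to 50 after the start) were matched for 61 of the 67 genes and searched on both strands for the CCAAT box, the TATAAA box, the octamer ATTTGCAT, the AC box of H1 genes (AAACACA) and GGTCCG (part of the H4 subtype element). A CCAAT box was present in 52 of 61 histone promoters (85.2%), compared with 37.4% of all 32851 promoters of this length. All 49 H1, H2A, H2B and H3 promoters held it and 3 of 12 H4 promoters did. TATAAA was present in 35 of 61 (57.4%, compared with 13.6%). The octamer was found in 7 of 18 H2A and 7 of 16 H2B promoters and in no other family (22.95% of 61, compared with 1.74%). GGTCCG was found in 11 of 12 H4 promoters, 1 of 16 H2B and 1 of 10 H3 (21.3% of 61, compared with 8.25%). AAACACA was found in 4 of 5 H1 promoters, 2 of 18 H2A and 2 of 16 H2B (13.1% of 61, compared with 7.18%). These matches are descriptions of letters and not of bound factors. The most abundant gene of 4 families is printed with every matched motif in capitals, ATTGG being CCAAT on the other strand.
Hist1h4k, chr13:21750504-21750803, minus strand: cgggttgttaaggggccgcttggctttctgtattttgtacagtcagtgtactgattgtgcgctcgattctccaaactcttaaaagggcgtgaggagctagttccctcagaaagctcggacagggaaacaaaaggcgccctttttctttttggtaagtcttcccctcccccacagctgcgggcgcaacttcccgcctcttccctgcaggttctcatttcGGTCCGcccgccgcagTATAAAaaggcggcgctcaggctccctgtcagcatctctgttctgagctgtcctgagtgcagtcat
Hist1h3b, chr13:23752095-23752394, plus strand: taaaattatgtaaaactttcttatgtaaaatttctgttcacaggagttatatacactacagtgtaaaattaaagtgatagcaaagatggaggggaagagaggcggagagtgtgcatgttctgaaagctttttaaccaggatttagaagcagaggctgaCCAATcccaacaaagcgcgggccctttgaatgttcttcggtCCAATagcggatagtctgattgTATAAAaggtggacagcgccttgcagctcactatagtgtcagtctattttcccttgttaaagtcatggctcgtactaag
Hist1h2bg, chr13:23571150-23571449, plus strand: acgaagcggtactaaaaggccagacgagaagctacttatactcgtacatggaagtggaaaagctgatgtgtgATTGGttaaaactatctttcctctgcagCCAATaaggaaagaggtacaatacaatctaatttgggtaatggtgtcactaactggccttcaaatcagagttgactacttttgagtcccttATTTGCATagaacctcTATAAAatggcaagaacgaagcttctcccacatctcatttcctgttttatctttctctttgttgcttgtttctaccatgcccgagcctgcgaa
Hist1h1b, chr13:21780576-21780875, minus strand: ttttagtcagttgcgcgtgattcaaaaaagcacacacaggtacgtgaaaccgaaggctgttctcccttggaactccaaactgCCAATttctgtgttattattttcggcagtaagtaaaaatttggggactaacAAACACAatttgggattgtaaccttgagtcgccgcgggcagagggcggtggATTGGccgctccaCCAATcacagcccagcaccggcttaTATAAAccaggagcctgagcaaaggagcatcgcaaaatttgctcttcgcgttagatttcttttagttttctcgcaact
Reading from the 5′ end, the H4 promoter holds GGTCCG ahead of TATAAA and no CCAAT, the H3 promoter 2 CCAAT boxes ahead of TATAAA, the H2B promoter the octamer just ahead of TATAAA, and the H1 promoter AAACACA among CCAAT boxes on either strand ahead of TATAAA.

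Of the 67 genes, 54 lie on chromosome 13, 10 on chromosome 3, 2 on chromosome 11 and 1 (Hist4h4) on chromosome 6 (GRCm38, GENCODE). On chromosome 13, 23 genes lie between bases 21715763 and 22043676 and 30 between 23531050 and 23934851. These blocks supplied 38.6% to 49.9% and 34.3% to 43.4% of the summed histone level of a library, and the chromosome 3 genes 9.75% to 19.5%. The level of each block followed that of all other histone genes over the 24 libraries, with a Pearson's r on the log2 scale of 0.997, 0.995 and 0.983 in that order. Hist4h4 alone on chromosome 6 had 0.701. In 13 places a histone gene is transcribed away from its neighbour with start sites at most 1000 bases apart, and 12 of these pairs join an H2A with an H2B gene. A shared promoter region did not go with a higher r. The r of log2 levels was 0.536 to 0.965 with a median of 0.881 in these pairs, beside a median of 0.892 over all 2211 pairs of histone genes. In Hist1h2ak and Hist1h2bn, 296 bases apart, levels were near equal (median log2 ratio 0.07). Hist1h2ae stayed below Hist1h2bg, 176 bases away, in every library (median log2 ratio -3.76).

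The histone genes took 0.0671% to 6.66% of all deposited TPM. After rescaling, the summed level of the 67 genes ran from 1479 to 35689, a 24.1-fold range (99.2-fold in deposited TPM). The families kept similar shares of that sum while it moved. H4 genes held 25.3% to 35.3%, H2A 19.6% to 35.9%, H2B 17.5% to 32.2%, H3 11.2% to 17.5% and the linker H1 genes 2.40% to 8.68%. Library depth cannot be read from TPM, and no counting error can be given. In bulk RNA, fewer cells in S phase and less histone mRNA per cell cannot be told apart.

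**Figure D1:**
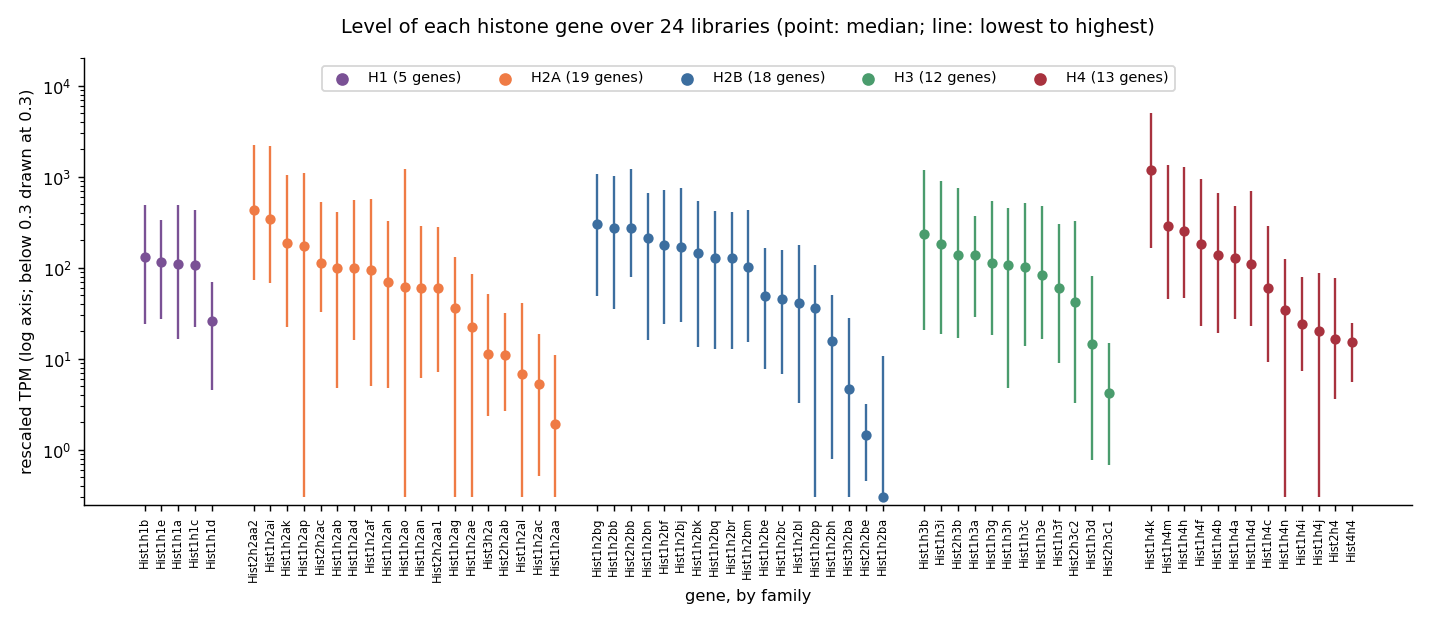
Level of each of the 67 genes, as rescaled TPM on a log axis, grouped by family. Points are medians over 24 libraries and lines run from the lowest to the highest library. Hist1h4k stands above every other gene, with a median of 1175.

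H4 forms the tetramer with H3 at the nucleosome's centre. Hist1h4k was the most abundant of all 67 genes, with a median of 1175 (167 to 5089), and alone held 10.4% to 16.9% of the summed level. Hist1h4m and Hist1h4h were next among H4 genes, with medians of 288 (45.6 to 1333) and 256 (47.01 to 1285). Among H3 genes, Hist1h3b had a median of 236 (20.7 to 1187), Hist1h3i of 181 (18.6 to 892) and Hist2h3b of 137 (16.9 to 757). H2A and H2B form the dimers that flank the tetramer. The highest H2A medians were 433 (74.1 to 2264) for Hist2h2aa2, 346 (67.5 to 2188) for Hist1h2ai and 189 (22.3 to 1056) for Hist1h2ak. The highest H2B medians were 305 (49.6 to 1061) for Hist1h2bg, 274 (35.6 to 1028) for Hist1h2bb and 271 (79.1 to 1224) for Hist2h2bb. H1 binds the linker DNA between nucleosomes. Of the 5 H1 genes, Hist1h1b (131, range 24.04 to 490.0), Hist1h1e (115, range 27.1 to 334), Hist1h1a (109.7, range 16.6 to 486) and Hist1h1c (108, range 22.2 to 432) were close in level, and Hist1h1d was lower (25.9, range 4.51 to 69.1). Except for the H1 genes, most of these single-copy values are uncertain. Of the 31-base words in their transcripts, 0% occurred in no other gene for Hist2h2aa2, Hist2h2bb and Hist2h3b, 6.82% for Hist1h3i, 7.99% for Hist1h2ai, 8.33% for Hist1h4m, 13.8% for Hist1h4k and 25.6% for Hist1h2ak, so their reads could belong to other copies. Within each family the ranges of neighbouring genes overlapped widely, so their order rests on medians over libraries that moved together. At the low end, Hist1h2ba, the H2B copy known from testis, was listed at 0 in 13 libraries and reached 10.8. In all, 52 genes reached 1 TPM in all 24 libraries and 11 were listed at 0 in at least 1.

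The histone genes moved as a block from library to library. Pearson's r between a gene's log2 level and the log2 sum of the other 66 had a median of 0.959 over the 24 libraries, and 52 of 67 genes exceeded 0.9. These values describe 24 libraries that share their scaling and fall into separate clusters by cell-cycle genes (given later), and no test was made of them. The median SD of a histone gene over the 24 libraries was 1.42 on the log2 scale, against 0.489 over all genes tested. Within labels it was 1.05, against 0.456, and 65 of 67 histone genes were above the median gene. A few members varied less than the rest, though of these only Hist2h2be was below the median gene. Hist2h2be, an H2B copy, had the smallest SD (0.46, levels 0.450 to 3.21), followed by Hist4h4 (0.64, 5.54 to 24.97) and Hist2h2ab (0.78, 2.69 to 31.8). Hist2h2ab also followed the other histone genes least, with r = 0.468. All of these are among the less abundant copies, where adding 1 before taking log2 narrows the spread.

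Histone copies are so alike in sequence that reads cannot always be assigned to a single gene. Counting 31-base words (the length kallisto uses by default) in the GENCODE transcripts, a median of 38.1% of a histone gene's words occurred in no other gene, 14 genes had under 10% and 5 had over 90%. Hist1h2bq and Hist1h2br share 98.3% of their words and had near-equal values in every library (log2 ratio -0.00492 to 0.1). Hist1h2ao and Hist1h2ap share 93.8%, but the split between them varied widely. In the libraries labelled TH9 16h cGAMP, Hist1h2ao was at 11.7, 52.1 and 22.5 and Hist1h2ap at 51.3, 0.306 and 0. In those labelled TH9 16h control, Hist1h2ao was at 187, 365 and 0 and Hist1h2ap at 159, 1104 and 190.4. Their r with the summed level was 0.587 and 0.824, but that of their own sum was 0.973. Values of single copies in such pairs are uncertain. The block does not rest on them: the 25 genes with at least 50% of their words unique supplied 15.1% to 24.1% of the summed level, and their sum followed that of the other 42 with r = 0.989 and a 16.8-fold range.

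**Figure D2:**
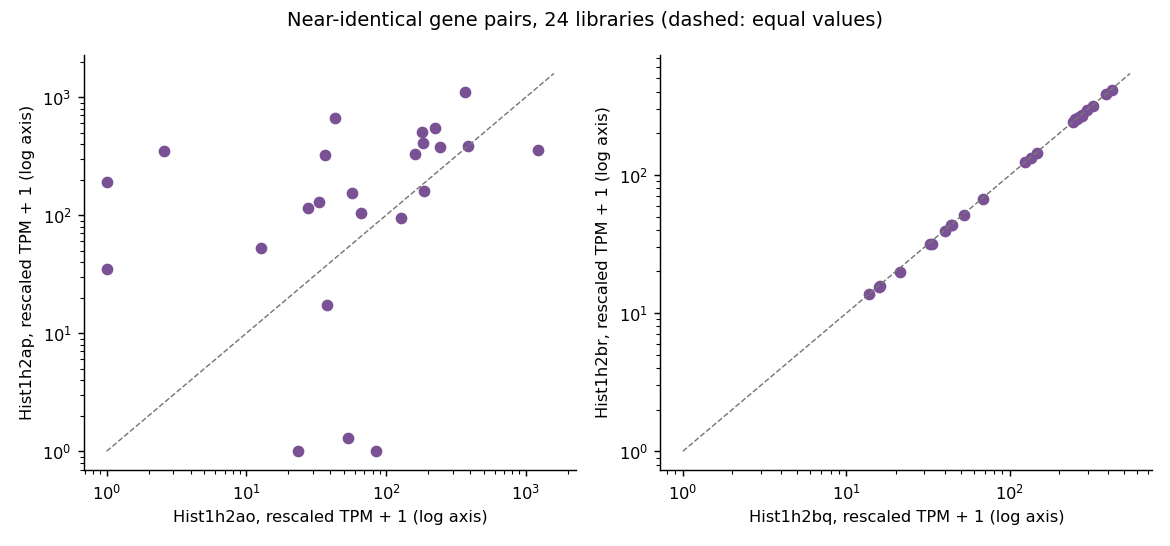
Levels of 2 pairs of near-identical genes in the 24 libraries (points), as rescaled TPM + 1 on log axes, with the dashed line at equal values. Hist1h2bq and Hist1h2br lie on the line, whereas Hist1h2ao and Hist1h2ap scatter, with Hist1h2ap below 1 in 3 libraries and Hist1h2ao in 2.

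Genes of the cell cycle were set beside the histone genes to see which of them moved together. The summed level of 19 mitosis genes fell into separate ranges, 211 to 507 in 12 libraries and 878 to 1207 in the other 12, and 4 of the 8 labels held libraries from both. All 3 libraries of TH9 48h cGAMP and TH1 48h control were in the upper range, as were 2 of TH1 16h cGAMP and TH9 16h control and 1 of TH1 48h cGAMP and TH9 48h control. None of TH9 16h cGAMP and TH1 16h control was. The summed histone level was 8142 to 35689 in the upper range and 1479 to 10297 in the lower, so across the gap more mitosis mRNA went with more histone mRNA. The sum of 38 DNA replication genes overlapped widely, at 1073 to 2352 in the upper and 1677 to 2922 in the lower. Because of this gap, correlations are given only inside the ranges, which were set after the values were seen. They were set on the mitosis sum itself, which narrows its spread inside each, so the mitosis and replication values cannot be ranked against each other. In the lower range, the histone sum and the mitosis sum had r = 0.762 (Spearman's rho 0.706, r = 0.612 without the 2 farthest libraries). In the upper range r was -0.173 (Spearman's rho -0.266, r = -0.202 without the 2 farthest libraries). The sum of the DNA replication genes had r = 0.782 (Spearman's rho 0.734, r = 0.613 without the 2 farthest libraries) in the lower and 0.564 (Spearman's rho 0.622, r = 0.583 without the 2 farthest libraries) in the upper. The scale factor had r = 0.0194 and -0.221, and -0.609 in the upper range without its 2 farthest libraries.

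Gene by gene, 31 of 38 DNA replication genes had r above 0.5 with the histone sum in the lower range and 13 in both ranges, compared with 13.1% of all 15720 genes in the lower range and 3.79% in both. Pcna, the sliding clamp of DNA polymerases, had r = 0.777 and 0.485 in the lower and upper range, and Mcm6, a subunit of the replicative helicase, 0.595 and 0.346. Mitosis genes had r above 0.5 in 12 of 19 in the lower range and in 3 of 19 in both. Top2a, the topoisomerase that untangles sister chromosomes, had 0.802 and -0.514, and Mki67, the Ki-67 proliferation antigen, 0.474 and -0.526. Of 19 genes that transcribe and process histone mRNA, 2 were above 0.5 in the lower range and 0 in both, near the share of all genes. Slbp, the stem-loop binding protein, had 0.764 and 0.451, and Npat, the co-activator, -0.449 and -0.563. Eri1, an exonuclease that trims and degrades histone mRNA, had 0.428 and -0.456. Of 18 histone chaperones, 3 exceeded 0.5 in both ranges, and Npm1 and Nap1l1, the most abundant, had 0.262 and -0.168, and 0.16 and -0.551. Of 10 genes listed as replication-independent histone genes, 2 exceeded 0.5 in both. H2afz, which encodes H2A.Z, had 0.785 and 0.474, and H3f3a, which encodes H3.3, 0.717 and -0.0267. Inside the ranges the histone genes still moved together, with a median r to the sum of the others of 0.934 in the lower and 0.843 in the upper range. All of these are descriptions of 12 libraries each, which share scaling and RNA preparation.

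**Figure D3:**
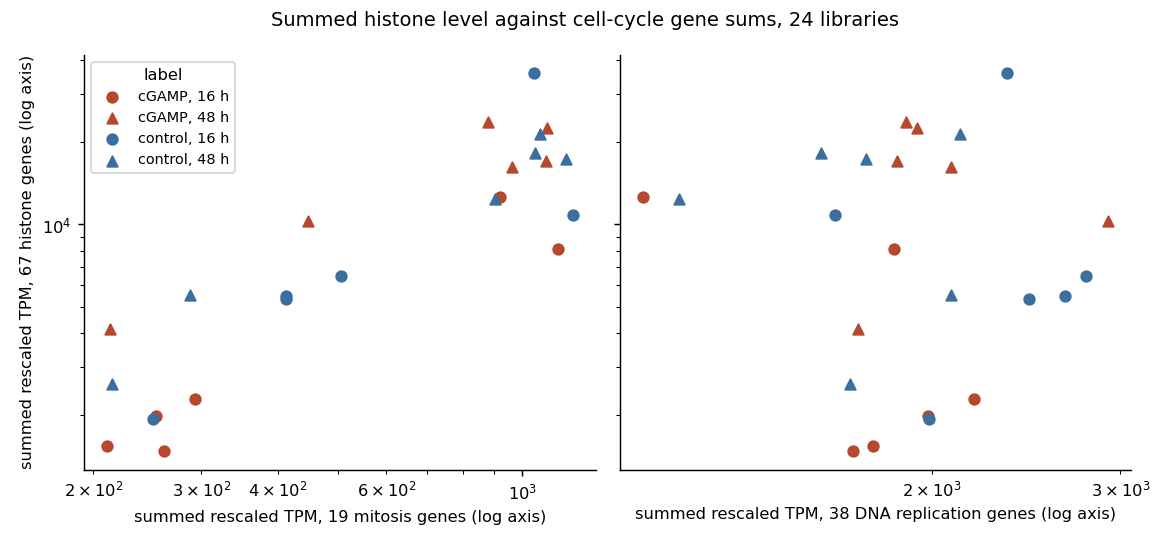
Summed level of the 67 histone genes (log axis) against the summed level of 19 mitosis genes (left) and 38 DNA replication genes (right), both on log axes, 1 point per library, red for cGAMP and blue for control labels, circles for 16 h and triangles for 48 h. The mitosis sums leave a gap between 507 and 878, while on the right no single trend runs through the 24 libraries.

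The labelled groups were then compared. In none of the 8 comparisons was a histone gene called (limma on log2 level + 1, all 24 libraries in a fit, Benjamini-Hochberg adjusted p under 0.05 over 15720 genes, two-sided), and few genes of any kind did. No gene of the lists of 19 mitosis, 38 DNA replication, 10 replication-independent histone, 18 histone chaperone or 19 histone mRNA processing genes did either. A total of 1 gene was called between cGAMP and control at TH1 16h (0.00636% of genes tested), 0 in the other 3 treatment comparisons (0%), 0 between TH9 and TH1 controls at 16 h and 2 at 48 h (0.0127%), and between 48 and 16 h 1 in TH1 controls (0.00636%) and 15 in TH9 controls (0.0954%). The study's own comparisons of cGAMP with control, made with DESeq2, listed strongly changed genes in both subsets at both times, Usp18 among them. The few calls here are between libraries as labelled. How far the marker differences inside labels lowered their number was not tested. Counts at an unadjusted p under 0.05 are given below beside the share of all genes that reached it. The histone genes moved as a block, so these counts, and those of genes without overlap, are not independent pieces of evidence. A high count can restate a single difference between the libraries compared. Summed levels differed up to 8.52-fold between libraries of the same label.

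**Figure D4:**
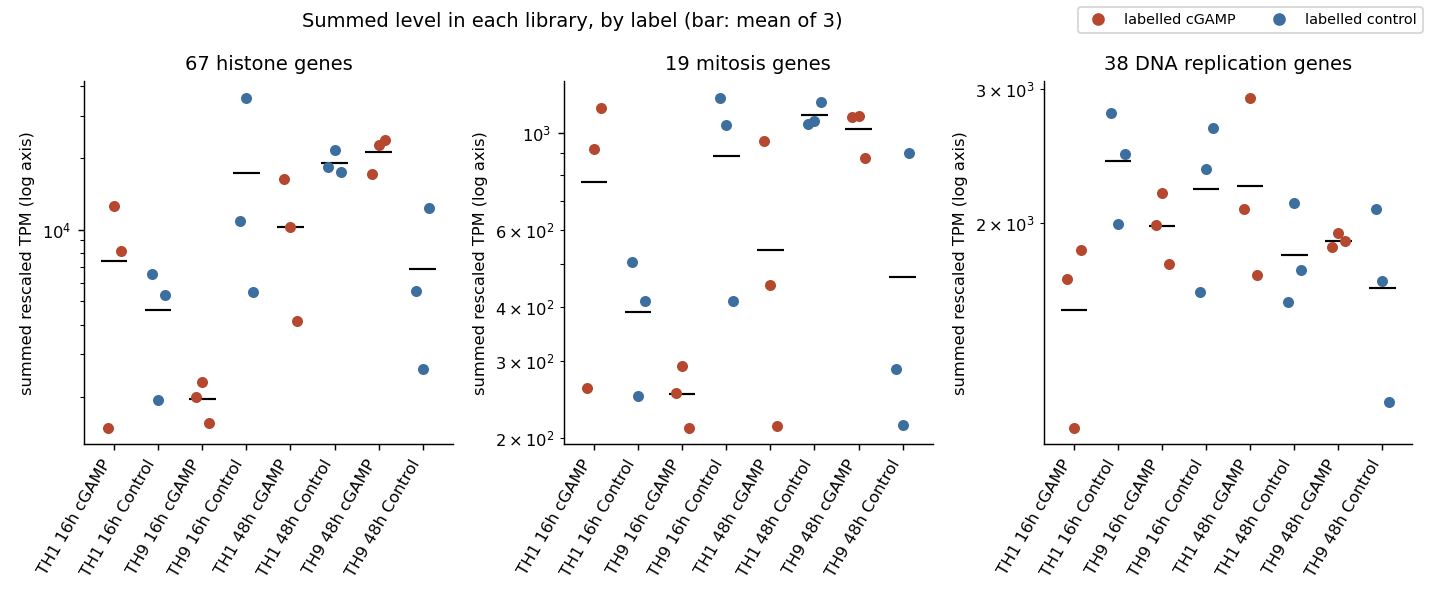
Summed level per library, as rescaled TPM on a log axis, of 67 histone genes, 19 mitosis genes and 38 DNA replication genes, by label (points: libraries; bars: mean of 3). The 3 TH9 16h cGAMP libraries hold 1550.1 to 2306 of histone mRNA, below every TH9 16h control library, and the 3 TH9 48h cGAMP libraries lie above every TH9 48h control library.

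Libraries labelled TH9 16h cGAMP held less histone mRNA than those labelled TH9 16h control, by the widest margin of the 4 treatment comparisons, and 0 of the 15720 genes passed the test. Marker genes differed inside both labels, and the upper range of the mitosis sum held 0 of the cGAMP libraries and 2 of the controls. Il9 was at 0, 6.72 and 91.9 in the cGAMP libraries, against 71.0, 609 and 0 in the controls. Irf7 was at 88.0, 1.32 and 69.9, against 0.777, 14.5 and 3.90. The part of these in the difference was not tested. The summed level was 1985, 2306 and 1550.1 in libraries labelled TH9 16h cGAMP, against 10822, 35689 and 5465 in those labelled TH9 16h control (mean 1947 ± 379, against 17325 ± 16127, SD, n = 3 each). All 67 genes had a log2 fold change below 0, with a median of -2.77 over the 67 genes, against -0.02 over all 15720 genes tested, and in 60 the groups did not overlap (lower in 7.61% of all genes). With limma, 65 of 67 had an unadjusted p under 0.05, beside 7.61% of all genes, and the smallest adjusted p was 0.263, in Hist1h2bh. Without control replicate 3, and without cGAMP replicate 2, 1 of the 67 was called. Hist1h4k was at 231, 355 and 209 in cGAMP libraries, against 1456, 5089 and 792 in control libraries. Every cGAMP value was below every control value, and limma gave a log2 fold change -2.80, standard error 0.76, adjusted p = 0.403. Hist1h3b was at 33.95, 61.05 and 22.7 in cGAMP libraries, against 260.1, 1187 and 174 in control libraries (log2 fold change -3.35, standard error 0.96, adjusted p = 0.478). Again the groups did not overlap, and the control libraries themselves spread widely. The H1 gene Hist1h1e was at 27.1, 40.3 and 29.3, against 184, 220.2 and 70.1 (log2 fold change -2.12, standard error 0.62, adjusted p = 0.506). The H2B gene Hist1h2bh was at 0.796, 4.16 and 2.97, against 19.9, 50.5 and 10.04 (log2 fold change -2.78, standard error 0.54, adjusted p = 0.263). By family the median fold change was -2.13 in H1, -2.74 in H2A, -2.88 in H2B, -3.00 in H3 and -2.50 in H4 genes. The fold changes ran from -6.31 in Hist1h2ap to -0.70 in Hist1h2ao, the pair whose values are uncertain. Of the 19 mitosis genes, 0 lay above 0 (median -1.67, 17 at an unadjusted p under 0.05), and of the 38 DNA replication genes 12 did (median -0.08, 3 at that threshold). Slbp had a log2 fold change of -0.16, Npat of 0.12 and Pcna of -0.05 with adjusted p of 0.904, 0.921 and 0.983. Lars2 took 33.8, 16.7 and 20.9% of TPM in the cGAMP libraries, against 0.812, 3.04 and 6.18% in the controls, and its part in the difference was not tested. Leaving out TH9 16h control replicate 2, the highest library of all, the median was -1.93.

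At 48 h the TH9 labels stood the other way round. The summed level was 17023, 22517 and 23681 in libraries labelled TH9 48h cGAMP, against 5539, 2610.4 and 12341 in those labelled TH9 48h control (mean 21074 ± 3556, against 6830.2 ± 4992, SD, n = 3 each), and the groups did not overlap. Of the 67 genes, 66 lay above 0, with a median of 1.89 over the 67 genes, against 0.004 over all 15720 genes tested, and in 50 the groups did not overlap (higher in 5.06% of all genes). With limma 0 genes of the 15720 were called, 51 of 67 had an unadjusted p under 0.05, beside 7.05% of all genes, and the smallest adjusted p of a histone gene was 0.657. Hist1h4k was at 1902, 2979 and 2456 in cGAMP libraries, against 759, 349 and 1555 in controls (log2 fold change 1.69, standard error 0.76, adjusted p = 0.68). The H2A gene Hist2h2aa2 was at 1108, 1039.6 and 1975, against 367, 199.6 and 479.9 (log2 fold change 2.00, standard error 0.67, adjusted p = 0.657). In both genes the lowest cGAMP library was above the highest control, and control replicate 3 was closest to the cGAMP libraries. By family the median fold change was 1.56 in H1, 1.99 in H2A, 1.92 in H2B, 1.82 in H3 and 1.82 in H4 genes. Hist2h2ab was the exception at 9.60, 24.2 and 11.6, against 13.9, 13.8 and 14.4 (log2 fold change -0.004, standard error 0.54, adjusted p = 1). Of the 19 mitosis genes, 19 lay above 0 (median 1.63, 11 at an unadjusted p under 0.05), and of the 38 DNA replication genes 24 did (median 0.09, 4 at that threshold). The upper range of the mitosis sum held 3 of the cGAMP libraries and 1 of the controls, and the part of this was not tested. In deposited TPM, the median over all genes at TH9 48h was 0.50 and that of the histone genes 2.50, a shift shared with most genes that the rescaling takes out. The cGAMP minus control difference was higher at 48 h than at 16 h in every histone gene of the TH9 labels (median of the difference 4.54), but 0 of 67 passed the interaction test (2 of 15720 genes did), with 63 at an unadjusted p under 0.05 (beside 12.2% of all genes) and a smallest adjusted p of 0.0927.

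In the TH1 labels at 16 h, the summed level was 1479, 12597 and 8142 in libraries labelled TH1 16h cGAMP, against 6499, 1936 and 5323 in those labelled TH1 16h control (mean 7406 ± 5595, against 4586 ± 2369, SD, n = 3 each), and the groups overlapped, the lowest and the highest of the 6 libraries both being labelled cGAMP. Of the 67 genes, 59 lay above 0, with a median of 0.37 over the 67 genes, against 0.05 over all 15720 genes tested. With limma, 0 of 67 had an unadjusted p under 0.05, beside 10.9% of all genes, and in 1, Hist2h2be, the groups did not overlap (higher in 8.87% of all genes). Hist1h4k was at 167, 1542 and 894 in cGAMP libraries, against 867, 305 and 756 in controls (log2 fold change 0.07, standard error 0.76, adjusted p = 0.979). The direction of the median rested on single libraries: it was -0.17 without control replicate 2, -0.16 without cGAMP replicate 2 and 1.15 without cGAMP replicate 1. Hist1h4n, the most positive gene, was listed at 0 in control replicate 2 (log2 fold change 1.48, standard error 1.18, adjusted p = 0.616). Hist1h2ao was the most negative (log2 fold change -1.57, standard error 1.74, adjusted p = 0.723). Of the 19 mitosis genes, 18 lay above 0 (median 0.89, 1 at an unadjusted p under 0.05), and of the 38 DNA replication genes 2 did (median -0.71, 20 at that threshold). Between the subsets at 16 h, the cGAMP difference (TH9 minus TH1) had a median of -3.11 over the histone genes, with 0 of 67 called in the interaction test, 60 at an unadjusted p under 0.05 (beside 14.9% of all genes) and a smallest adjusted p of 0.27.

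At 48 h the summed level was 16259, 10297 and 4145 in libraries labelled TH1 48h cGAMP, against 18204, 21515 and 17432 in those labelled TH1 48h control (mean 10234 ± 6058, against 19050.3 ± 2169, SD, n = 3 each). Every cGAMP library lay below every control, and cGAMP replicate 3 was the lowest. Without that library the median fold change given next was -0.59. Of the 67 genes, 66 lay below 0, with a median of -1.12 over the 67 genes, against 0 over all 15720 genes tested, and in 22 the groups did not overlap (lower in 8.89% of all genes). With limma 0 of the 15720 genes were called and 10 of 67 had an unadjusted p under 0.05, beside 14.2% of all genes, a share of histone genes near the background. Hist1h4k was at 2512, 1503 and 519 in cGAMP libraries, against 3081, 3041 and 2166 in controls (log2 fold change -1.12, standard error 0.76, adjusted p = 0.51). Those groups overlapped. Among H1 genes, the values were log2 fold change -1.79, standard error 0.76, adjusted p = 0.311 for Hist1h1a and log2 fold change -1.51, standard error 0.71, adjusted p = 0.345 for Hist1h1c. Hist2h2ab was the only gene above 0 (log2 fold change 0.38, standard error 0.54, adjusted p = 0.777), and Hist1h2ao the most negative (log2 fold change -4.03, standard error 1.74, adjusted p = 0.316). Of the 19 mitosis genes, 0 lay above 0 (median -1.34, 10 at an unadjusted p under 0.05), and of the 38 DNA replication genes 29 did (median 0.27, 6 at that threshold). The upper range of the mitosis sum held 1 of the cGAMP libraries and 3 of the controls, and the part of this was not tested. Between the times in the TH1 labels, the cGAMP difference (48 h minus 16 h) had a median of -1.51, with 0 of 67 called, 6 at an unadjusted p under 0.05 (beside 22.4% of all genes) and a smallest adjusted p of 0.0968. Between the subsets at 48 h, the cGAMP difference had a median of 2.92 (TH9 minus TH1) over the histone genes, with 0 of 67 called in the interaction test, 53 at an unadjusted p under 0.05 (beside 14.3% of all genes) and a smallest adjusted p of 0.217.

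**Figure D5:**
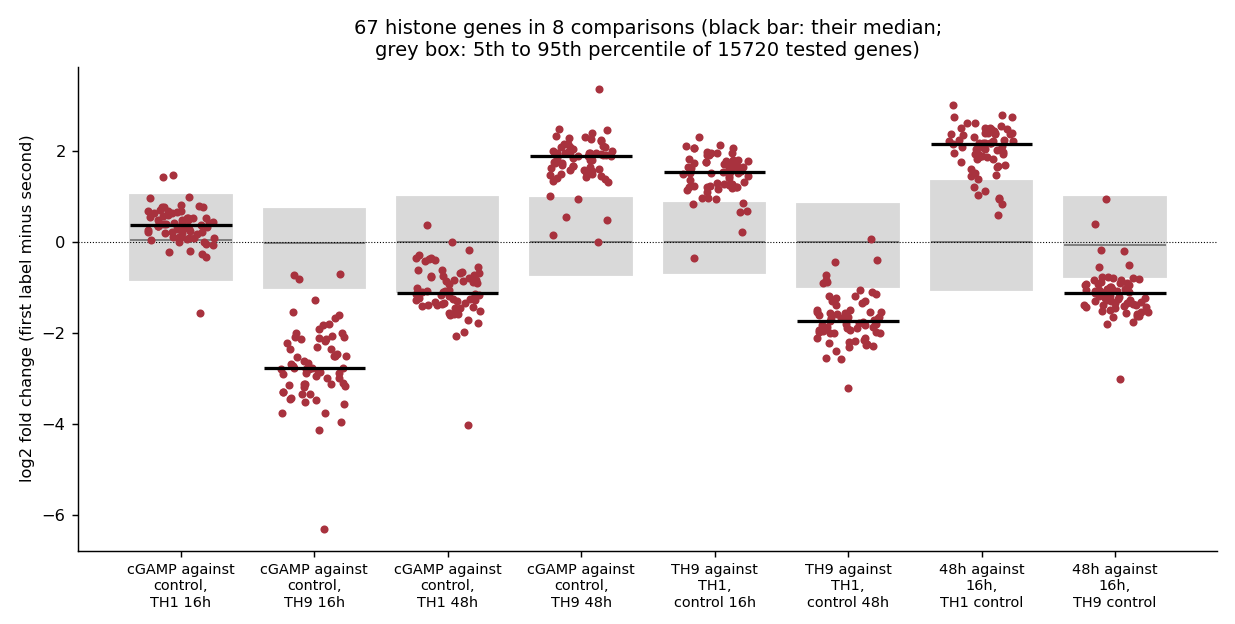
Log2 fold changes (vertical axis, the label named first minus the second) of the 67 histone genes (points) in the 8 comparisons, with their median as a black bar and the 5th to 95th percentile of 15720 tested genes as a grey box. With few exceptions the points lie on 1 side of 0 in 7 comparisons. In cGAMP against control at TH1 16h they run from -1.57 to 1.48, with 59 of 67 above 0 and a median of 0.37. The medians of the 8 comparisons run from -2.77 to 2.15.

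Among controls, time and subset were compared in the same way. Libraries labelled TH1 48h control held more histone mRNA than those labelled TH1 16h control, at 18204, 21515 and 17432 against 6499, 1936 and 5323 of summed level. All 67 genes lay above 0, with a median of 2.15 over the 67 genes, against 0.0009 over all 15720 genes tested, and in 62 the groups did not overlap (higher in 16.2% of all genes). With limma, 57 of 67 had an unadjusted p under 0.05, beside 21.1% of all genes, and the smallest adjusted p was 0.107. Hist1h1c was at 409, 371 and 228 in TH1 48h controls, against 76.3, 22.2 and 63.05 in TH1 16h controls (log2 fold change 2.75, standard error 0.71, adjusted p = 0.107). Hist1h4k was at 3081, 3041 and 2166, against 867, 305 and 756 (log2 fold change 2.22, standard error 0.76, adjusted p = 0.131), and Hist1h2bb, the most positive gene, at 1028, 928 and 609, against 192, 47.1 and 119 (log2 fold change 3.01, standard error 0.95, adjusted p = 0.119). In each of them the lowest library at 48 h was above the highest at 16 h. This was the only comparison in which a narrower fit called histone genes: with only its 6 libraries in the fit, 31 of 67 and 1111 of 15720 genes were called. Fitted with a replicate block, 0 of 67 and 0 of 15720 were. Of the 19 mitosis genes, 19 lay above 0 (median 1.56, 14 at an unadjusted p under 0.05), and of the 38 DNA replication genes 4 did (median -0.49, 11 at that threshold). In libraries labelled TH9 control the direction was the opposite, with 5539, 2610.4 and 12341 at 48 h, against 10822, 35689 and 5465 at 16 h, and these groups overlapped. The upper range of the mitosis sum held 2 of these 16 h libraries and 1 of the 48 h libraries, and the part of this was not tested. Of the 67 genes, 65 lay below 0, with a median of -1.12 over the 67 genes, against -0.06 over all 15720 genes tested, and 2 of 67 had an unadjusted p under 0.05, beside 8.78% of all genes. That median was -0.45 without 16h replicate 2, -0.60 without 48h replicate 2 and -1.77 without 16h replicate 3. Deposited TPM without rescaling called 63 of the 67 and 9538 of 15720 genes in this comparison, where the median of all genes was -1.46.

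The TH9 48h control libraries held less histone mRNA than the TH1 48h control libraries in all 3 against all 3. Of the 67 genes, 66 lay below 0, with a median of -1.74 over the 67 genes, against 0 over all 15720 genes tested, and in 47 the groups did not overlap (lower in 5.81% of all genes). With limma, 39 of 67 had an unadjusted p under 0.05, beside 8.17% of all genes, and the smallest adjusted p was 0.376. Hist1h4k was at 759, 349 and 1555 in TH9 libraries, against 3081, 3041 and 2166 in TH1 libraries (log2 fold change -1.87, standard error 0.76, adjusted p = 0.585), with no overlap. Without TH9 control replicate 2 the median was -1.14. At 16 h, TH9 control libraries lay above TH1 control libraries in 66 of 67 genes, with a median of 1.54 over the 67 genes, against -0.002 over all 15720 genes tested, but the summed levels overlapped and in 7 genes the groups did not (higher in 5.97% of all genes). With limma 0 of the 15720 genes were called and 27 of 67 had an unadjusted p under 0.05, beside 3.96% of all genes, and the smallest adjusted p was 0.951. The median was 0.83 without TH9 replicate 2 and 0.97 without TH1 replicate 2. Comparisons that share a control label share its 3 libraries, so their values are not independent of each other.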

How the data were processed

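Total RNA from 24 mouse CD4 T cell cultures was depleted of ribosomal RNA and sequenced by the study. The authors trimmed reads with Trimmomatic and quantified them with kallisto on mm10, and deposited TPM per gene symbol. DESeq2 is also in the submitters' processing notes. No version and no transcript annotation is given in the sources used here. Without counts, depth and counting precision are unknown.

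Libraries were grouped by their labels alone. TPM were divided by median-of-ratios scale factors, and log2(level + 1) was fitted with limma 3.58.1 (R 4.3.3, limma-trend) in a model with 1 mean per label over all 24 libraries. The test covered 15720 symbols that reached 1 TPM in 3 or more libraries, with two-sided Benjamini-Hochberg adjusted p-values called under 0.05. A fold change on this scale understates the change of low genes. Interactions used contrasts of the same fit. The replicate numbers give 3 libraries a label, which the study describes as independent experiments. Whether a number is a shared experiment across labels was checked by correlating deviations from label means, which cannot tell it from a shared condition. The script for the fit was tested on simulated data. Sequences and coordinates came from RefSeq and GENCODE (GRCm38) with Python 3.11.15.

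Genes named are every H1 gene, the 3 with the highest median in each other family, the most positive and most negative fold change of each comparison, genes at the edge of the filter or with a printed sequence, and the 2 most abundant of each list with Slbp and Npat. Others (Hist1h2bh, Hist2h2be, Hist4h4 and the paired copies) were chosen after their values were seen. The members, lists and tests were chosen with earlier results of these data known. Alternatives were other scalings, pseudocounts, filters, a replicate block, fits of the compared libraries alone and leaving out each library.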

Additional observations from a re-analysis of the deposited data

Results flagged for a closer look

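The summed level of the 67 histone genes lay in opposite directions with the treatment label in different groups. In the TH9 labels, all 3 cGAMP libraries lay above all 3 controls at 48 h and below all 3 controls at 16 h. The differences of the mean log2 sums were 1.89 at 48 h and -2.74 at 16 h, and their difference was 4.63. At 48 h, all 3 cGAMP libraries lay above all 3 controls in the TH9 labels and below all 3 controls in the TH1 labels, with differences of 1.89 and -1.10 and a difference between them of 2.99. The difference of the sums was not tested in either case. Gene by gene, the limma interaction called 0 of 67 histone genes in both, with 63 of 67 at an unadjusted p under 0.05 for the first (beside 12.2% of all genes) and 53 of 67 for the second (beside 14.3%). Because the histone genes moved together, these counts are not independent pieces of evidence. The marker genes go against some labels, as given above. The labels also differed in how many libraries they held from the upper range of the mitosis sum. For TH9 48h, the cGAMP label held 3 and its control 1. For TH9 16h these counts were 0 and 2, and for TH1 48h they were 1 and 3. Each time, the label with the higher histone level held more upper-range libraries. The part of the labels or of these ranges in the opposite directions was not tested.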

How the results depend on the processing

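All alternatives kept the deposited labels, so none of them bears on whether the labels are right. Over the alternatives tried, histone genes were called only where a count of them is given below, and the median fold change of the histone genes kept its sign in 126 of 128 alternatives. Both exceptions were cGAMP against control at TH1 16h, without control replicate 2 and without cGAMP replicate 2, and that median ran from -0.17 to 1.15 with a library left out. Over the results of whole comparisons, 314 values stayed close to the main value and 62 moved, and over single genes 335 of 360 kept their call and direction. TPM give no read depth, near-identical copies cannot be told apart, and 3 libraries a label with up to 8.52-fold spread limit the test. That widest spread was in the TH1 16h cGAMP label, which held libraries of both mitosis ranges. The marker genes go against libraries of every label, and how far this widens the spread within labels was not tested. The cause of each change below was not tested.

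Deposited TPM without rescaling gave 0 genes called for TH9 against TH1 at 48 h, 1583 genes called and a histone median of 1.32 for 48 against 16 h in TH1 controls, and 9538 genes, 63 of them histone genes, and a median of -2.85 in TH9 controls. It turned the direction of Hist1h4k at TH1 16h (-0.057), Hist2h2ab at TH9 48h (0.66), for TH9 against TH1 at 48 h (-0.44) and for 48 against 16 h in TH1 controls (-0.20), and Hist1h2ao for 48 against 16 h in TH9 controls (-0.60). The median over all genes then shifted by up to -1.46. Without the 20 most abundant symbols, 1 gene was called at TH1 48h, 1 for TH9 against TH1 at 48 h, 295 for 48 against 16 h in TH1 and 0 in TH9 controls. A pseudocount of 0.1 gave 0 genes at TH1 16h, 1 at TH1 48h and 1 for TH9 against TH1 at 48 h, and turned Hist1h2ao at TH9 16h (0.34). A pseudocount of 10 gave 0 at TH1 16h and 0 for 48 against 16 h in TH1 controls, and turned Hist2h2ab at TH9 48h (0.021) and Hist1h2ao for TH9 against TH1 at 16 h (0.56). With no filter, calls were 4 for cGAMP in TH1 cells at 16 h and 1 at 48 h, 20 for cGAMP in TH9 cells at 48 h, 21 for TH9 against TH1 at 48 h and 25 for 48 against 16 h in TH9 controls. A mean of at least 2 TPM gave 0 genes at TH1 16h, 0 for TH9 against TH1 at 48 h and 0 for 48 against 16 h in TH1 controls. Fits of the 6 libraries compared gave 0, 0 and 1111 genes in the same comparisons, 31 of the 1111 being histone genes, and 1 gene for 48 against 16 h in TH9 controls. Restricting the histone genes to those with at least 50% unique 31-base words, an alternative chosen after seeing the data, kept the sign of all 8 medians.

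With a replicate block, 0 genes were called at TH1 16h, 0 for TH9 against TH1 at 48 h and 0 for 48 against 16 h in TH1 controls, and no histone call changed. Deviations of same-numbered libraries correlated above 0.1 in 4 of 24 pairs (-0.42 to 0.29), among them every replicate of the TH1 controls at 48 and 16 h. Marker genes ran alike over these numbers, with Il9 at 0, 0 and 8.92 at 16 h and at 0, 0 and 38.2 at 48 h. A shared experiment therefore cannot be told apart from a shared condition. The main fit did not use the numbers as pairs.

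Leaving out a library at a time, between 0 and 1 genes were called for cGAMP in TH1 cells at 16 h and between 0 and 2 at 48 h. In TH9 cells the range for cGAMP was 0 to 6 at 16 h and 0 to 2 at 48 h. It was 0 to 2 for TH9 against TH1 at 16 h and at 48 h, 0 to 2 for 48 against 16 h in TH1 and 0 to 23 in TH9 controls, while 0 to 1 histone genes were called at TH9 16h. At TH1 16h, Hist1h4n ran from -0.31 to 2.66, Hist1h4k from -0.60 to 1.00 and Hist1h2ao from -3.00 to 0.50. Hist1h2ao ran from -3.38 to 0.88 at TH9 16h, from -1.93 to 2.33 for TH9 against TH1 at 16 h and from -1.72 to 2.54 for 48 against 16 h in TH9 controls. Hist2h2ab ran from -0.23 to 0.42 for TH9 against TH1 at 48 h and from -0.38 to 0.25 at TH9 48h.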

Other observations

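Other gene groups of histone biology were compared in the same way. In the TH9 labels at 16 h, the log2 fold change of cGAMP against control had 1 of 10 replication-independent histone genes above 0 (median -0.66), 13 of 18 histone chaperone genes above 0 (median 0.15) and 8 of 19 histone mRNA processing genes above 0 (median -0.08). At 48 h it had 7 of 10 replication-independent histone genes above 0 (median 0.49), 12 of 18 chaperone genes above 0 (median 0.09) and 13 of 19 processing genes above 0 (median 0.09). With limma 0 genes of these lists were called in either comparison, and the counts at an unadjusted p under 0.05 were 3, 0 and 1 at 16 h and 3, 1 and 0 at 48 h, in the same order of lists. H2afz, the gene of H2A.Z, had a log2 fold change of -0.90 (adjusted p = 0.661) at 16 h and 0.68 (adjusted p = 0.795) at 48 h, and H3f3a, a gene of H3.3, -0.06 (adjusted p = 0.982) and -0.30 (adjusted p = 0.847) in limma with Benjamini-Hochberg adjustment.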
